A study of Mus musculus with 6 samples.

Results

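The genes described here are 8 genes of lung monocytes and interstitial macrophages: Cd14, Csf1r, Cx3cr1, Cd163, Lyve1, Folr2, F13a1 and Ly6c2. They were picked by name with earlier results of these data known, and every array probe whose RefSeq accession belongs to one of them was used. Of the 8 genes, 7 had a probe, with 11 probes in all, among the 19749 genes with a probe on the array. No probe of Ly6c2 was named, so its level is not reported.

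Total RNA of homogenised whole lung from C57BL/6 mice was measured on 6 one-colour arrays, 1 for each of 6 groups. The groups were FcRg KO (FcRg-/-) mice given HRF, FcRg KO mice given PBS, FceRIa KO (FceRIa-/-) mice given HRF, FceRIa KO mice given PBS, wild type (WT) mice given HRF and WT mice given PBS. HRF is mouse histamine-releasing factor, a secreted protein that can bind IgE, given through the nose, and the labels of the HRF arrays write it mHRF-His. FcRg is the signalling chain shared by several Fc receptors, and FceRIa is the IgE-binding chain of the high-affinity IgE receptor, so the design asks how the lung's response to HRF differs in mice that lack either chain. Dose, time after challenge, the age and sex of the mice, the knockout alleles and the number of mice behind an array are not given in the sources used here. There is no replicate within a group, so a p-value below rests on the spread between arrays of unlike groups and not on that between mice of 1 group.

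All 6 arrays lay on 1 slide and were scanned in 1 run, and between 67.5% and 79.6% of the 59305 spots other than controls were well above background. The lung markers Sftpc and Scgb1a1 stood above log2 8 on every array. The labelled deletions were not visible at the probes of their genes. Fcer1g, which encodes FcRg, had a level of log2 4.32 and 4.14 on the arrays labelled FcRg KO with HRF and PBS, against 4.61 and 3.93 on the WT arrays with HRF and PBS. Fcer1a had log2 -1.16 and -0.90 on the arrays labelled FceRIa KO with HRF and PBS, against -4.19 and -4.48 on the WT arrays. Its level was thus higher, not lower, under the label of its own deletion, while the FcRg KO arrays had -4.38 and -4.70. The cause of the higher level was not tested. A probe outside a deleted stretch may still give signal, and the probe positions are not known here. The genotype labels were therefore not borne out by these probes, and every array is named by its label.

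Monocytes enter the lung from blood, and those of the classical kind carry high Ly6C, while those of the non-classical kind carry high CX3CR1 and patrol vessels. Interstitial macrophages sit in the lung tissue around airways, vessels and nerves, apart from the alveolar macrophages of the air spaces, and in mice they include a perivascular population that carries LYVE1, FOLR2 and CD163. CSF1R is a growth factor receptor of the monocyte and macrophage lineage, and CD14 helps these cells to sense bacterial lipopolysaccharide (LPS). In whole lung, fewer cells of a type and less RNA per cell cannot be told apart.

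Levels are given as log2 of the processed spot signal relative to the array's own 75th percentile, so 0 marks the 75th percentile and 1 unit is a 2-fold difference. Levels are compared between arrays within a probe and not between probes. The scanner's own error estimate was about 0.14 on this scale for a single value of a bright probe and 0.20 for a difference between a pair of arrays. It covers the instrument and not the spread between mice.

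Between the HRF and PBS arrays, Cd14 was the member at least 2-fold higher with HRF under 2 of the 3 labels, FceRIa KO and WT. Cd14, which encodes the co-receptor that hands LPS to TLR4 and MD-2, had a level of log2 2.34 on the array labelled FcRg KO with HRF, against 2.51 on that labelled FcRg KO with PBS. The arrays labelled FceRIa KO had log2 4.04 with HRF, against 2.09 with PBS. In WT the levels were log2 4.28 with HRF, against 2.58 with PBS. The HRF arrays of FceRIa KO and WT were therefore high, and the HRF array of FcRg KO lay among the 3 PBS arrays.

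As a ratio of HRF to PBS, Cd14 was at log2 -0.17 on the arrays labelled FcRg KO, within the scanner error. It was 3.86-fold higher with HRF on the arrays labelled FceRIa KO (log2 1.95, scanner error 0.20) and 3.25-fold higher in WT (log2 1.70, scanner error 0.20). The processed signals behind these values were 6589 and 9165 for FcRg KO with HRF and PBS, 19662 and 6786 for FceRIa KO, and 30422 and 9711 for WT. In the order of the 6 levels, FcRg KO PBS lay between WT PBS above it and FcRg KO HRF below it, and its gap to each was within the scanner error.

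The average HRF effect on Cd14 over the 3 labels, from limma's additive model of genotype and challenge, was log2 1.16 with a standard error of 0.50 and did not pass (adjusted p = 0.558, higher in 2 of 3 pairs). Without the FcRg KO pair it was log2 1.82, with an adjusted p of 0.583. The response of the FcRg KO pair, set apart after its values were seen, differed from that of the other pairs by log2 -2.00 (SE 0.21). With 1 residual degree of freedom this difference had an unadjusted limma p of 0.00326 and an adjusted p of 0.687 over 17601 genes, so it did not pass. Markers of neutrophils, which also express Cd14, were at least 2-fold higher with HRF for 2 of 11 genes on the arrays labelled FcRg KO, for 0 of 11 on those labelled FceRIa KO and for 4 of 11 in WT. Their summed level, set to 1 for WT PBS, was 1.32 and 1.11 for FcRg KO with HRF and PBS, 1.63 and 1.43 for FceRIa KO, and 1.20 for WT HRF. Their part in the Cd14 ratios was not tested.

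**Figure D1:**
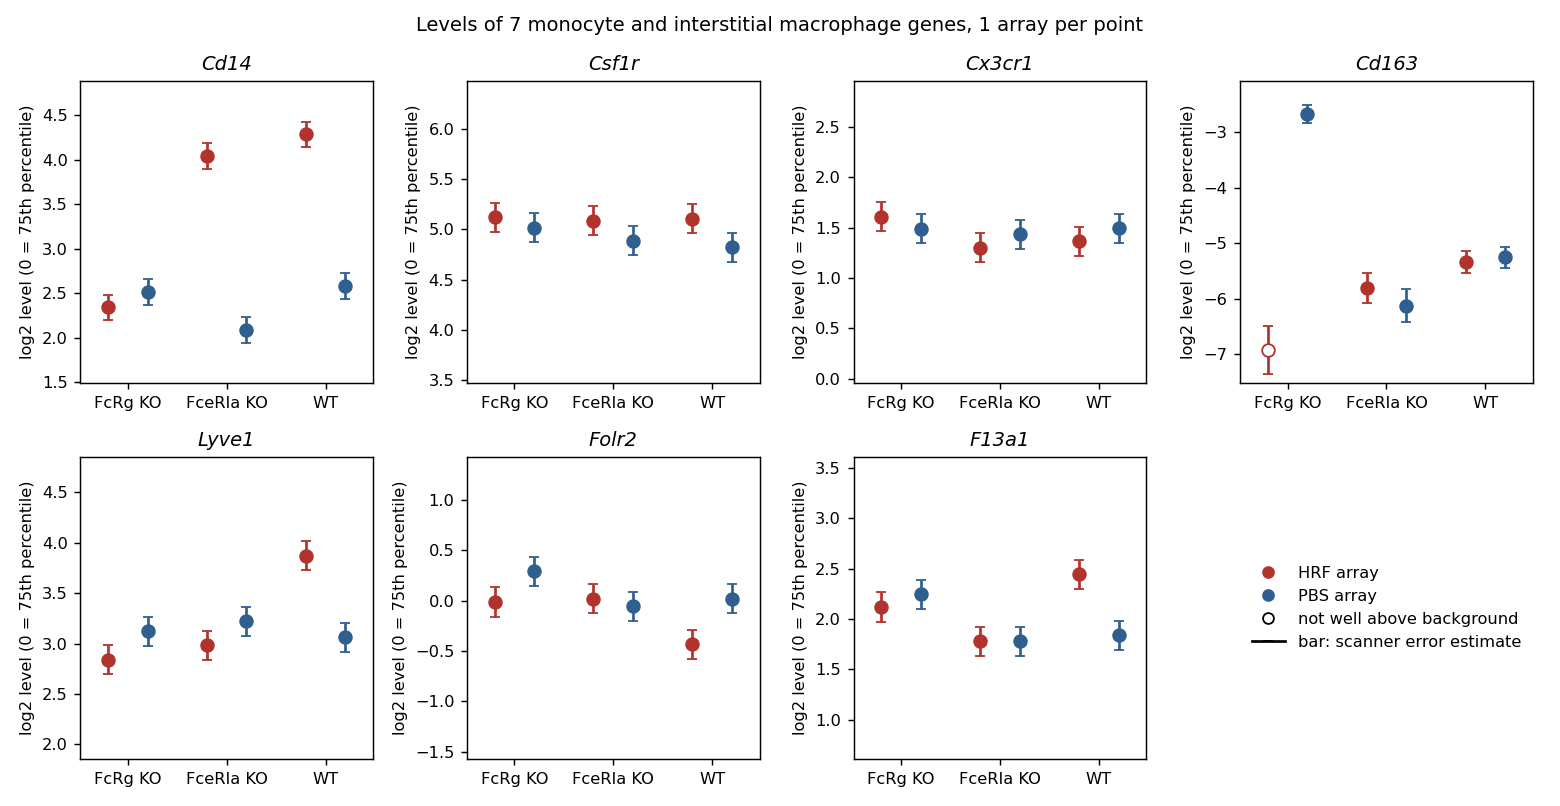
Log2 level (0 = 75th percentile of the array) of the 7 measured genes, 1 point per array, HRF in red to the left of PBS in blue for each genotype label; bars are the scanner's error estimate, an open point is not well above background, and each panel has its own range. Cd14 is high on the HRF arrays labelled FceRIa KO and WT at 4.04 and 4.28, Cd163 stands out on the PBS array labelled FcRg KO at -2.68, and Lyve1 on the WT HRF array at 3.87.

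Csf1r, the receptor for the growth factors Csf1 and Il34, showed little difference between the arrays. Its brightest probe read log2 5.12 and 5.02 on the arrays labelled FcRg KO with HRF and PBS, 5.09 and 4.89 on those labelled FceRIa KO, and 5.11 and 4.82 in WT. The HRF array was the higher in each of the 3 pairs, with log2 ratios of 0.11, 0.20 and 0.28. The average effect was log2 0.20 (SE 0.07) and did not pass (limma adjusted p = 0.557). Over the 6 levels of Csf1r in order, no gap between neighbours exceeded the scanner error. A further probe gave log2 ratios of 0.12, 0.07 and 0.10 for FcRg KO, FceRIa KO and WT, and another gave 0.24, 0.06 and -0.0040.

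Cx3cr1, the receptor of fractalkine, was also nearly level. Its brighter probe read log2 1.61 and 1.49 on the arrays labelled FcRg KO with HRF and PBS, 1.30 and 1.43 on those labelled FceRIa KO, and 1.36 and 1.49 in WT. The log2 ratios of HRF to PBS were 0.12, -0.13 and -0.13, each within the scanner error of 0.20, and no gap between neighbours in the order of its levels exceeded that error. The second probe gave -0.12 on the arrays labelled FcRg KO, so the probes of Cx3cr1 disagree in sign there. The average effect was log2 -0.05 (SE 0.09, limma adjusted p = 0.858), and it turned to 0.031 when arrays were scaled on their medians.

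Promoter sequence was looked at for shared motifs in 5 of the members, Cd163, Folr2, Cx3cr1, F13a1 and Ly6c2. The RefSeq promoter table (assembly GRCm38.p6) gave 8 windows of 300 bases for them, 250 before and 50 after a transcript start. The promoters of Cd14, Csf1r and Lyve1 were not looked at, so the counts of member windows say nothing about these genes. The motifs searched on both strands were GAGGAA, the core of sites of PU.1, the main transcription factor of myeloid cells, TGCTGA, a part of sites of MAF factors, and CACGTG, the E-box bound by MITF and TFEB. No match of one motif overlaps a match of another in these windows. GAGGAA was in 28.3% of 32851 promoters, TGCTGA in 19.5% and CACGTG in 7.15%. Of the 8 windows, 4 held GAGGAA (F13a1 and Ly6c2, where the windows of Ly6c2 overlap and share their matches, so that the same stretch is counted more than once), 2 held TGCTGA (Folr2) and 0 held CACGTG. Cd163 and Cx3cr1 held none of the 3, which says only that these letters are not in the window.

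The 250 bases before 1 start each of Cd163, Folr2 and F13a1 are shown, since Cd163 had 1 array far above the others, Folr2 was lowest on the WT HRF array and F13a1 highest there, as described next. They are written 5′ to 3′ along the gene's strand, with motif matches in capitals, and lie at chr6:124304401-124304650 on the plus strand, chr7:101845332-101845581 on the minus strand and chr13:37050245-37050494 on the minus strand of GRCm38.p6.
Cd163: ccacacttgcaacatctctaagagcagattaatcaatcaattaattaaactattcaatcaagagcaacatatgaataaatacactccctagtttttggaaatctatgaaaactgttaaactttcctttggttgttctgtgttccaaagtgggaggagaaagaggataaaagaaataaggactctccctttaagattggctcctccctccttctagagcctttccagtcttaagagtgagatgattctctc
Folr2: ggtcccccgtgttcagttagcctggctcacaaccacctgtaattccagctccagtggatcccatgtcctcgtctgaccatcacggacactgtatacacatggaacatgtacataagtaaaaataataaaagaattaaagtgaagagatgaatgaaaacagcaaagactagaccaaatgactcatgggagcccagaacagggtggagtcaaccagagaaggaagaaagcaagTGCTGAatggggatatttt
F13a1: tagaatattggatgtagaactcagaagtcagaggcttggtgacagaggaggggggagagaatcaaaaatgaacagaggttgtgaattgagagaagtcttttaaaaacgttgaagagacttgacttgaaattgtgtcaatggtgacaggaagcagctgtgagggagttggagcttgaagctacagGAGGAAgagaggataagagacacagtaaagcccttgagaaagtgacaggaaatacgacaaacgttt
The Folr2 window holds TGCTGA starting at its base 232, and the F13a1 window holds GAGGAA starting at base 185, counted from 1 at the 5′ end. A match is a description of the sequence, and the arrays measure no binding.

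Cd163, the scavenger receptor that takes up haemoglobin bound to haptoglobin, was dim on 5 arrays and stood apart on 1. It read log2 -6.92 on the array labelled FcRg KO with HRF, where it was not well above background, against -2.68 on that labelled FcRg KO with PBS. The arrays labelled FceRIa KO read -5.81 with HRF and -6.12 with PBS. The WT arrays read -5.34 with HRF and -5.25 with PBS. The PBS array labelled FcRg KO was the only high one, with a processed signal of 250, against 10.8 to 42.5 on the other arrays.

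Cd163 was at least 14.3-fold lower with HRF than with PBS on the arrays labelled FcRg KO. This value is a lower bound, since the HRF side was set at the dimmest probe of that array that was still well above background. It holds for this normalization: with normexp background correction and quantile normalization the log2 ratio was -1.54, and where probes had to be well above background on both arrays Cd163 was not compared. On the arrays labelled FceRIa KO the log2 ratio was 0.31 (scanner error 0.41), and in WT it was -0.08 (scanner error 0.27). Between PBS arrays, FcRg KO stood 10.8-fold above FceRIa KO and 5.94-fold above WT. The average HRF effect of log2 -1.33 did not pass (SE 1.08, limma adjusted p = 0.664), and without the FcRg KO pair it was 0.12. The response of the FcRg KO pair differed from the others by log2 -4.35, which takes the dim HRF value as measured. It had an unadjusted limma p of 0.00069 and an adjusted p of 0.687.

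On the PBS array labelled FcRg KO, where Cd163 was high, the summed adipocyte and cardiac muscle markers also stood above those of the HRF array of that label. Between the HRF and PBS arrays labelled FcRg KO, 6 of 10 adipocyte markers and 2 of 10 cardiac muscle markers were at least 2-fold lower, with medians of log2 -1.24 and -0.90. The lowest adipocyte marker was Ucp1, the uncoupling protein of brown fat, with a log2 ratio of -6.44 there and 2.77 on the arrays labelled FceRIa KO. Cidea, a lipid droplet protein of brown fat, had -3.30 on the arrays labelled FcRg KO, and Nppb, a natriuretic peptide of heart muscle, had -2.99. The summed adipocyte level relative to WT PBS was 0.864 and 1.65 on the arrays labelled FcRg KO with HRF and PBS, 1.78 and 0.843 on those labelled FceRIa KO, and 0.905 on the WT HRF array. The FceRIa KO HRF array thus had the highest adipocyte sum while its Cd163 level was -5.81. The summed cardiac level was highest on the FcRg KO PBS array at 1.39 and lay between 0.726 and 1 on the other arrays. All 10 cardiac markers had a log2 ratio below 0 between HRF and PBS on the arrays labelled FcRg KO. The cardiac sum was also lower with HRF for FceRIa KO (0.758 against 0.870) and WT (0.762 against 1). The Cd163 ratios of those pairs were within the scanner error. The part of neither tissue in the Cd163 value was tested.

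**Figure D2:**
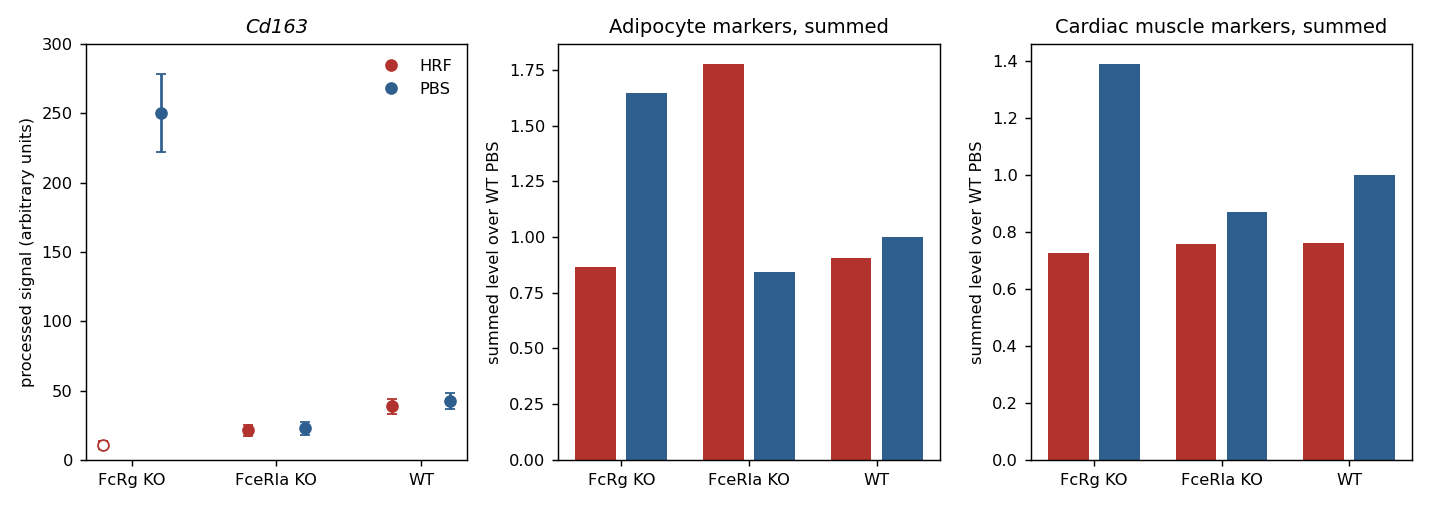
Processed signal of Cd163 (left, arbitrary units, bars the scanner's error estimate, open point not well above background) and the summed level of 10 adipocyte markers (middle) and 10 cardiac muscle markers (right) relative to WT PBS, 1 array per point or bar, HRF in red to the left of PBS in blue. The PBS array labelled FcRg KO is highest for Cd163 at 250 and for the cardiac sum at 1.39, while the adipocyte sum is high on that array at 1.65 and on the HRF array labelled FceRIa KO at 1.78.

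Lyve1, a receptor for hyaluronan on lymphatic vessels and perivascular macrophages, was high on 1 array. It read log2 2.84 on the array labelled FcRg KO with HRF, against 3.12 on that with PBS. The arrays labelled FceRIa KO read 2.98 with HRF and 3.22 with PBS. The WT arrays read 3.87 with HRF and 3.06 with PBS. The WT HRF array lay 0.65 above the next level, more than the scanner error of 0.20, and no other gap between neighbours exceeded that error.

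The log2 ratio of Lyve1 was -0.28 for FcRg KO and -0.24 for FceRIa KO, against 0.81 for WT, a 1.75-fold difference. The average HRF effect was log2 0.10 (SE 0.27, limma adjusted p = 0.905), and without the WT pair it was -0.26. The response in WT exceeded that of the other pairs by log2 1.07 (SE 0.13). Its unadjusted limma p was 0.0073 and its adjusted p 0.569, so it did not pass. Of 9 lymphatic endothelial markers, of which 8 could be compared for FcRg KO, 0 were at least 2-fold higher or lower with HRF under any label. Their summed level was 1.23 and 1.20 for FcRg KO with HRF and PBS, 1.22 and 1.18 for FceRIa KO, and 1.13 for WT HRF relative to WT PBS. Prox1, the transcription factor that sets lymphatic identity, had a log2 ratio of -0.29 in WT, although the summed level of the list was higher with HRF there. It was not well above background on the HRF array labelled FcRg KO.

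Folr2, which encodes folate receptor beta of tissue macrophages, read log2 -0.01 and 0.29 on the arrays labelled FcRg KO with HRF and PBS. It read 0.02 and -0.06 on those labelled FceRIa KO, and -0.43 and 0.02 in WT. The WT HRF array was lowest and the FcRg KO PBS array highest, and the other 4 levels did not differ beyond the scanner error. The log2 ratios were -0.30 for FcRg KO, 0.07 for FceRIa KO and -0.45 for WT, and the average effect of -0.23 did not pass (SE 0.13, limma adjusted p = 0.586). Folr2 and Lyve1, both markers of the perivascular population, thus lay on opposite sides of their PBS level in WT. Of the 4 other folate receptor and carrier genes examined, 0 were at least 2-fold higher or lower under any label, and Folr1, its epithelial relative, had log2 ratios of -0.05, 0.42 and 0.06.

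F13a1, the A subunit of factor XIII, which cross-links fibrin, is made by monocytes, macrophages and platelets. Its brighter probe read log2 2.12 and 2.25 on the arrays labelled FcRg KO with HRF and PBS, 1.78 and 1.78 on those labelled FceRIa KO, and 2.45 and 1.84 in WT. The WT HRF array and both FcRg KO arrays formed the upper levels, and WT PBS and both FceRIa KO arrays the lower ones. The log2 ratios were -0.13, 0.00065 and 0.61, the last being 1.52-fold, and a second, dim probe gave -0.20, 0.22 and 0.53. The average effect was log2 0.16 (SE 0.18, limma adjusted p = 0.745), and without the WT pair it was -0.064. The response in WT exceeded the others by log2 0.67 (SE 0.15), with an unadjusted limma p of 0.029 and an adjusted p of 0.569, and did not pass. All 10 platelet markers lay below 0 in WT, with a median log2 ratio of -0.43, while F13a1 lay above 0 there. Their summed level relative to WT PBS was 1.18 and 1.06 for FcRg KO with HRF and PBS, 1.60 and 1.11 for FceRIa KO, and 0.823 for WT HRF. The part of platelets in the F13a1 ratios was not tested.

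Ly6c2 encodes a Ly6C protein of classical monocytes and was not measured by a named probe. Its neighbour Ly6c1, which encodes a close relative found on endothelium as well, had log2 levels of 6.97 and 7.04 on the arrays labelled FcRg KO with HRF and PBS, 6.98 and 6.94 on those labelled FceRIa KO, and 6.97 and 6.64 in WT. The log2 ratios of Ly6c1 were -0.07, 0.04 and 0.33. A probe of either gene may pick up RNA of the other, which cannot be told apart here. Ccr2, the receptor that draws classical monocytes to CCL2, had log2 1.06 and 0.64 on the arrays labelled FcRg KO with HRF and PBS, 0.52 and 0.36 on those labelled FceRIa KO, and 1.55 and 0.25 in WT, so its WT HRF array was the highest.

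**Figure D3:**
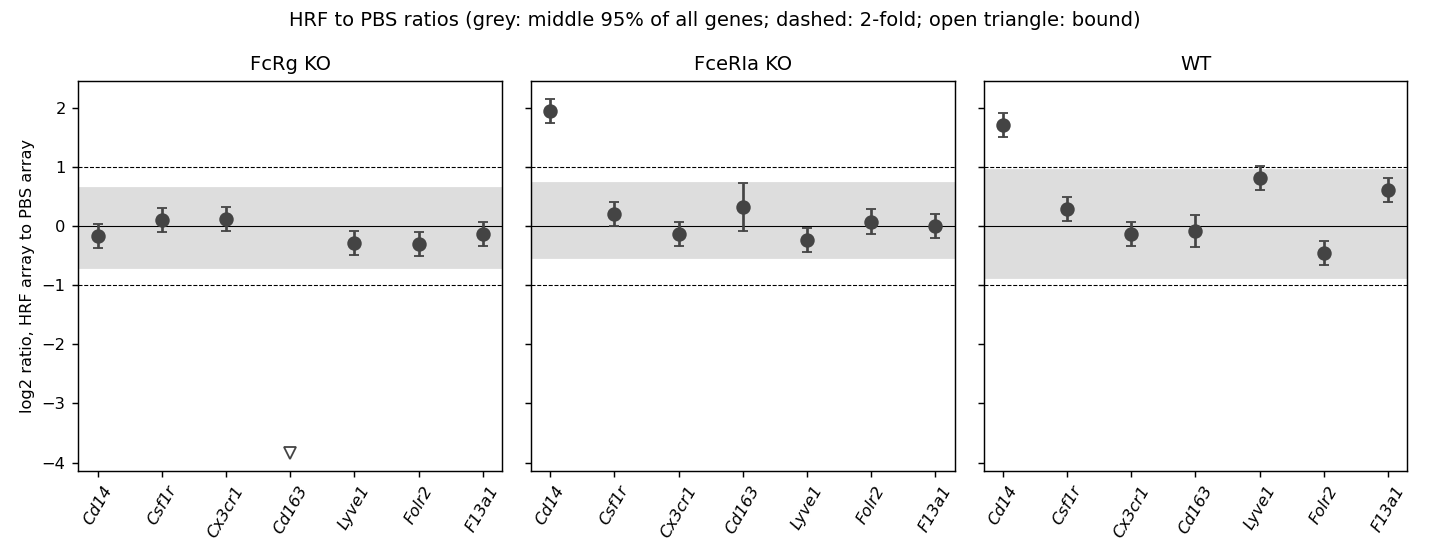
HRF to PBS log2 ratio of the 7 measured genes under each genotype label, with the scanner's error as bars; the grey band holds the middle 95% of all genes compared, dashed lines mark 2-fold and the open triangle is a bound. Cd14 lies above the band on the arrays labelled FceRIa KO and in WT at 1.95 and 1.70, Cd163 lies below it on the arrays labelled FcRg KO at a bound of -3.84, and the other ratios lie inside it.

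Counted together, few of the genes reached 2-fold. On the arrays labelled FcRg KO, 0 of 7 were at least 2-fold higher with HRF and 1 was at least 2-fold lower (Cd163), against 0.765% and 1.18% of the 16591 genes compared. On the arrays labelled FceRIa KO, 1 of 7 was higher (Cd14) and 0 lower, against 1.48% and 0.447% of 16314 genes. In WT, 1 of 7 was higher (Cd14) and 0 lower, against 2.32% and 1.52% of 17431 genes. Scaling on the median in WT changed the split of all genes to 614 higher and 106 lower, against 404 and 265, and brought Lyve1 to log2 1.03. The median ratio of the 7 genes was log2 -0.17 for FcRg KO, 0.07 for FceRIa KO and 0.28 for WT, beside 0.0012, -0.01 and -0.05 over all genes. For the average HRF effect, limma passed 0 of the 7 genes and 0 of 17601 genes in all at an adjusted p of 0.05 (0% in either direction). At an unadjusted p under 0.05 it had 0 of the 7 and 1552 of all.

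Set against WT, the arrays labelled FcRg KO were 2-fold or more apart at 3 of these genes with HRF and at 1 with PBS. Between the HRF arrays, 3 of 7 genes were at least 2-fold lower in FcRg KO than in WT and 0 higher, against 3.02% and 0.946% of all genes. These were Cd14 (log2 -1.94, scanner error 0.20), Lyve1 (log2 -1.03, scanner error 0.20) and Cd163 (at least 2.27-fold lower). Lyve1 and the bound of Cd163 (log2 -1.18, scanner error 0.47) lay within the scanner error of the 2-fold line. The Cd163 signals were close to background, at 10.8 for FcRg KO HRF and 38.7 for WT HRF. Counts against WT were not recomputed under other processing. Between the PBS arrays, 0 of 7 were lower and 1 was higher, Cd163 at log2 2.57, against 3.04% and 0.679%. The arrays labelled FceRIa KO had 0 of 7 genes at least 2-fold from WT with HRF, against 2.29% lower and 1% higher over all genes, and 0 with PBS, against 2.88% and 0.512%. Both comparisons share the WT arrays. Set directly against FceRIa KO, FcRg KO had 1 of 7 genes lower with HRF (Cd14 at log2 -1.70) and 0 higher, against 2.01% and 1.08% of all genes, and with PBS 1 higher (Cd163) and 0 lower, against 1.14% and 1.18%. For FceRIa KO, the gaps from WT that came nearest to 2-fold without reaching it were Lyve1 at log2 -0.89 between HRF arrays and Cd163 at -0.87 between PBS arrays.

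Averaged over both challenges, limma passed 0 of the 7 genes against WT for either label. For FcRg KO it passed 1 gene higher and 25 lower of 17601 (0.00568% and 0.142%), and for FceRIa KO 0 (2262 at an unadjusted p under 0.05). The lowest adjusted p among the 7 genes was that of Folr2 for FcRg KO, log2 0.35 (SE 0.16, adjusted p = 0.434), and that of F13a1 for FceRIa KO, log2 -0.36 (SE 0.22, adjusted p = 0.549). Of the genes in the lists, 236 with a probe, Ly6d, a lymphocyte and epithelial relative of Ly6c2 in the same gene cluster, was the one that passed a contrast. Ly6d fell to log2 -1.22 and -1.56 on the arrays labelled FcRg KO with HRF and PBS, against 3.09 and 2.74 in WT (log2 -4.30, SE 0.08, limma adjusted p = 0.00827, lower on 2 of 2 arrays).

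The partners of these genes in their pathways were examined through lists of related genes, also chosen with earlier results of these data known. No list gene passed the limma test of the average HRF effect, so what follows describes ratios between arrays. Of 13 genes of fractalkine and of monocyte recruitment, 0 were at least 2-fold higher with HRF on the arrays labelled FcRg KO, 3 on those labelled FceRIa KO and 8 in WT, and 0 were lower under any label. The median log2 ratios were 0.14 for FcRg KO, 0.37 for FceRIa KO and 1.34 for WT. Ccl7 and Ccl2, both ligands of CCR2, had log2 ratios of 0.41 and -0.06 for FcRg KO, 3.66 and 3.39 for FceRIa KO, and 4.77 and 4.35 for WT. Cx3cl1, the ligand of CX3CR1, had 0.05, 0.14 and -0.21, and Adam17, which sheds it from the cell surface, had 0.05, -0.11 and 0.02. Cx3cl1, like its receptor, thus stayed inside 2-fold under each label.

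Of 15 classical monocyte markers, 0 were at least 2-fold higher with HRF for FcRg KO, 1 for FceRIa KO and 6 for WT, with median log2 ratios of 0.23, 0.15 and 0.71. Their summed level relative to WT PBS had another order, with the FcRg KO HRF array highest. It was 1.38 and 1.05 for FcRg KO with HRF and PBS, 1.20 and 0.975 for FceRIa KO, and 1.17 for WT HRF. Ccl9, a chemokine of myeloid cells, had 0.72 for FcRg KO, 2.13 for FceRIa KO and 1.65 for WT. Ifitm6, a myeloid membrane protein, had -0.06, -0.09 and 1.45, and Ccr2 had 0.42, 0.17 and 1.30. The integrin Itgam and the lysozyme Lyz2, which neutrophils and macrophages share, had -0.24 and -0.06 in WT. Of 12 non-classical monocyte markers, 0 reached 2-fold under any label, and Nr4a1, the nuclear receptor on which these cells depend, had log2 -0.93, 0.68 and -0.62.

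Of 23 interstitial macrophage markers, 0 were at least 2-fold higher with HRF for FcRg KO, 1 for FceRIa KO and 4 for WT, with median log2 ratios of 0.02, 0.13 and 0.27. The highest in WT were the chemokines Ccl12 (0.60 for FcRg KO, 2.15 for FceRIa KO, 2.65 for WT) and Ccl8 (0.88, 0.42 and 1.90), which also sit in the recruitment list. The lowest in WT were Cd209f, a lectin, at -0.54 and Fcgrt, the neonatal Fc receptor, at -0.21. Of 11 pan-macrophage markers 0 reached 2-fold, with medians of log2 0.17 for FcRg KO, -0.0051 for FceRIa KO and 0.42 for WT. Of 18 alveolar macrophage markers, 1 was at least 2-fold lower for FcRg KO, 3 were higher for FceRIa KO and 3 were higher for WT. The interstitial macrophage markers past 2-fold in WT also included Timd4, a receptor for dying cells, at 1.23, while the complement gene C1qa was at 0.19 and the mannose receptor Mrc1 at 0.75.

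**Figure D4:**
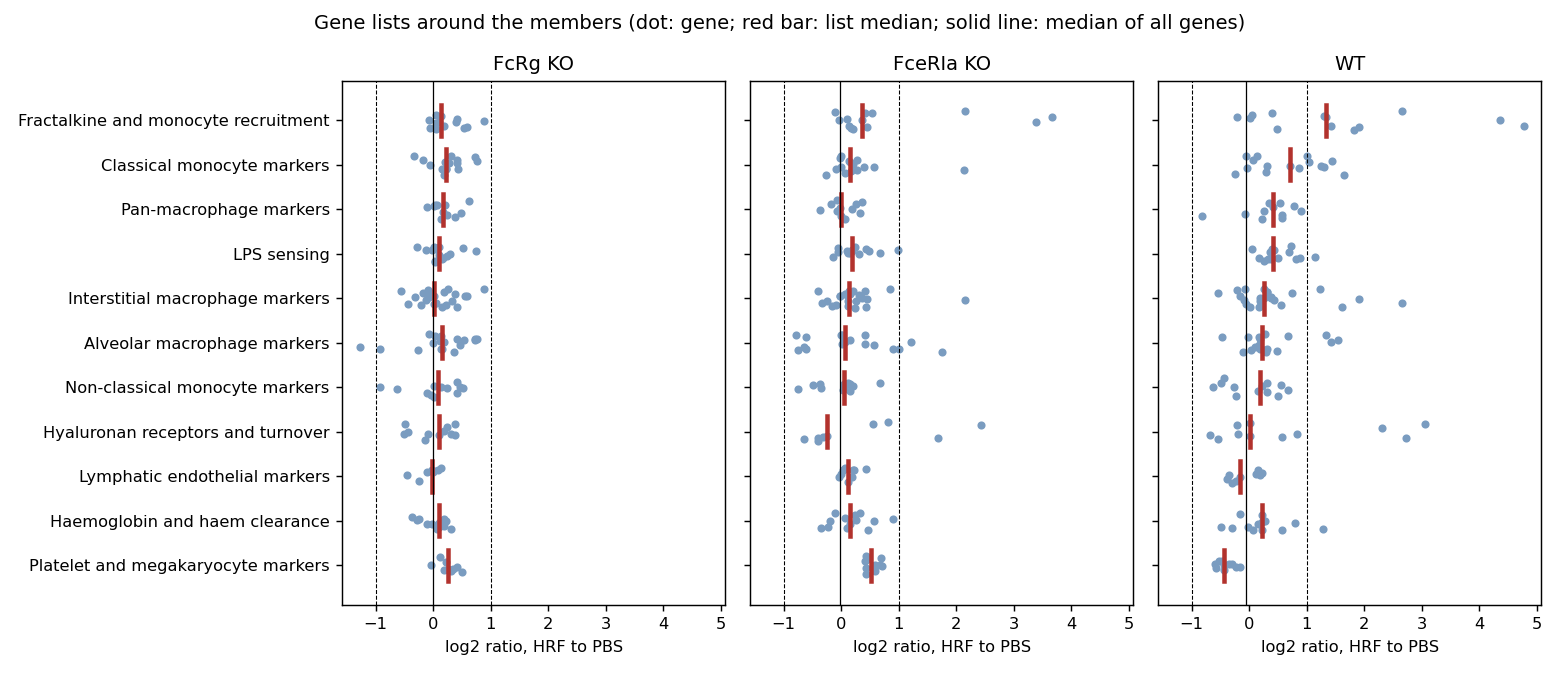
HRF to PBS log2 ratio of the genes of 11 lists under each genotype label, 1 dot per gene, with the list median as a red bar, the median of all genes as a solid line and 2-fold as dashed lines. The recruitment list has the widest spread in WT, with a median of 1.34 and Ccl7 at 4.77, and its dots stay inside 2-fold on the arrays labelled FcRg KO.

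On the arrays labelled FceRIa KO and WT, the partners of CD14 had smaller ratios than Cd14 itself. Of the LPS sensing genes, 0 of 15 were at least 2-fold higher with HRF on the arrays labelled FcRg KO, 0 of 14 on those labelled FceRIa KO and 1 of 14 in WT, and 0 were lower. The receptor Tlr4 had log2 ratios of 0.02, 0.19 and 0.50, and the adaptor Myd88 had 0.04, 0.49 and 1.14. Tlr6 had 0.10, 0.12 and 0.88. In WT all 14 genes compared lay above 0, the lowest being the kinase Irak1 at 0.06, and the median was 0.42.

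For CSF1R, the ligand Csf1 had log2 ratios of 0.20, 0.69 and 0.73 for FcRg KO, FceRIa KO and WT, and the ligand Il34 had -0.09, 0.16 and 0.37. Of the 16 genes of CSF1R ligands and macrophage transcription factors, 0 reached 2-fold on the arrays labelled FcRg KO and 1 was higher on those labelled FceRIa KO (Csf2, a growth factor of granulocytes and macrophages, at 1.77). Cebpa, a myeloid transcription factor, had 0.05, 0.16 and -0.18.

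For LYVE1, the genes of hyaluronan receptors and turnover were examined. The synthase Has1 had log2 ratios of 0.31, 2.42 and 2.73 for FcRg KO, FceRIa KO and WT, and Tnfaip6, which remodels hyaluronan in inflamed tissue, had 0.18, 1.68 and 3.06. The hyaluronidase Hyal1 had -0.44, -0.32 and -0.67 and the receptor Hmmr, a gene of dividing cells, 0.38, -0.40 and -0.53. At least 2-fold higher were 0 of 11 genes for FcRg KO, 2 of 9 for FceRIa KO and 3 of 11 for WT, and 0 were lower.

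For CD163, the haemoglobin and haem genes were nearly level, with 0 of 13 at least 2-fold from PBS on the arrays labelled FcRg KO and FceRIa KO and 1 higher in WT, the haem-binding Hpx at log2 1.28. Among 11 relatives and other scavenger receptors, 3 were at least 2-fold higher on the arrays labelled FceRIa KO, and 2 were higher and 1 lower in WT. Msr1 had 0.44, 1.56 and 2.04, Marco had 0.13, 1.76 and 1.33, and Scara5, a ferritin receptor of stromal cells, had -0.30, 0.25 and -1.20. None of the 11 reached 2-fold on the arrays labelled FcRg KO, where Cd163 itself was at least 14.3-fold lower. For F13A1, the fibrinogen chain Fgg had -0.53, 3.44 and 1.13 and the transglutaminase Tgm1 had 0.03, 0.83 and 1.71. Of the factor XIII and fibrin list, 0 of 11 genes were at least 2-fold higher for FcRg KO, 2 of 11 for FceRIa KO (with 1 lower) and 2 of 12 for WT. In the Ly6 cluster, Ly6i, expressed in activated myeloid cells, had 0.80, 2.29 and 1.34, and of 9 genes 0, 2 and 1 were at least 2-fold higher.

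Markers of other cell types that whole lung holds also moved between arrays. Dendritic cell markers were at least 2-fold higher for 0 of 7 genes in FcRg KO, 0 of 7 in FceRIa KO and 3 of 7 in WT, led by Batf3 at log2 2.41 and Cd209a at 1.96. NK cell markers were at least 2-fold higher for 0, 0 and 1 of 9 genes, that being Gzmb in WT at log2 1.64. Adipocyte markers were at least 2-fold higher for 7 of 10 genes on the arrays labelled FceRIa KO, with a median of log2 1.14. Their part in the ratios of the monocyte and macrophage genes was not tested.

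The genes whose profile over the 6 arrays lay nearest to that of Cd14 were Ccl22, a chemokine of dendritic cells and macrophages, Zc3h12a, an RNase that degrades cytokine messages, and Steap4, a metalloreductase. The measure was the root mean square difference of log2 levels after each gene's mean was removed, among 15677 genes well above background on all 6 arrays, and it was 0.123 for Ccl22, 0.168 for Zc3h12a and 0.201 for Steap4, against a median of 0.881 over all genes searched. Ccl22 had log2 ratios of -0.08 for FcRg KO, 1.70 for FceRIa KO and 1.98 for WT. For Lyve1, the nearest genes were Gda, a guanine deaminase, at 0.0824, Sema6b, a semaphorin, at 0.0872, and Gm17019 at 0.105, against a median of 0.372. Gda had log2 ratios of -0.36, -0.17 and 0.64. With 6 arrays and many genes searched, near profiles are a description of these arrays.

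**Figure D5:**
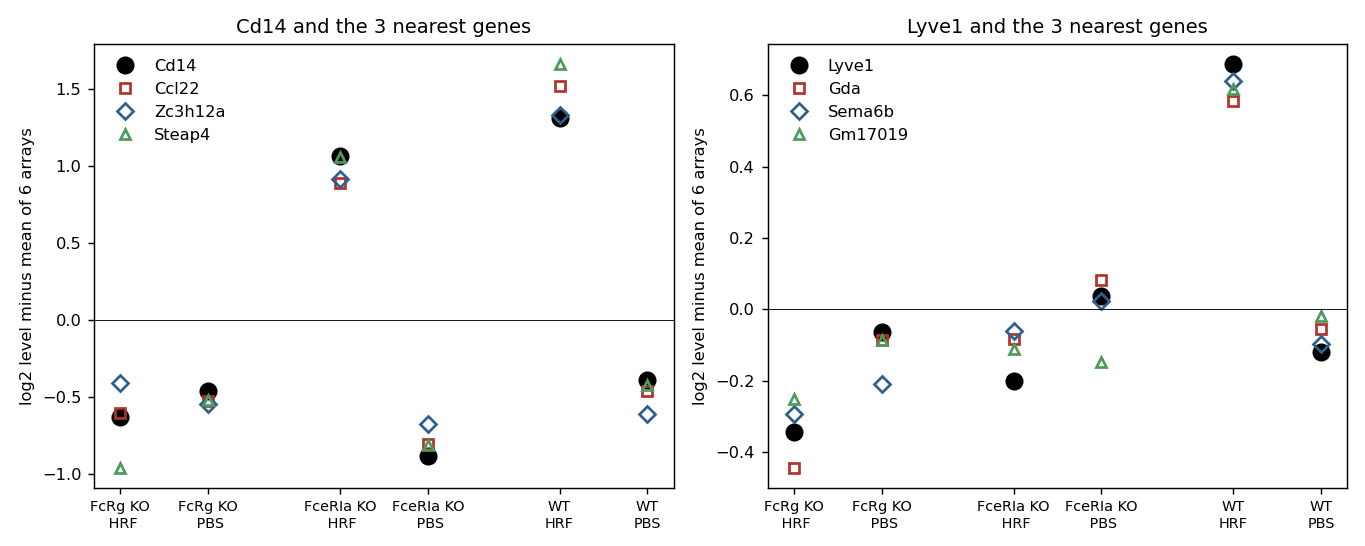
Log2 level minus the mean over the 6 arrays for Cd14 (left) and Lyve1 (right), black, with the 3 genes of nearest profile, on each array. Cd14, Ccl22, Zc3h12a and Steap4 lie high on the HRF arrays labelled FceRIa KO and WT, and Lyve1, Gda, Sema6b and Gm17019 lie high on the WT HRF array alone.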

How the data were processed

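The members and all gene lists were chosen with earlier results of these data known. Per the file headers, Feature Extraction 10.7.3.1 made the deposited processed intensity by subtracting background and detrending within the array (design on mm9). The deposited value table holds log2 values whose centring is not stated; its HRF minus PBS differences followed the scanner files' (r of 0.996 to 0.997, slope 1.00), with column medians of 0.1 for WT PBS and 0 otherwise. Control and outlier spots were left out, spots of 1 probe averaged, and log2 signal taken relative to the array's 75th percentile (1197 to 1622). Of 55681 probes, 26056 were named by RefSeq accession through GRCm38.p6; the probe with the highest mean stands for a gene. Comparisons cover genes well above background on either array, and a dim side gives a bound. Effects were fitted over all genes with limma 3.58.1 in R 4.3.3 (genotype and challenge additive, 2 residual degrees of freedom, Benjamini-Hochberg 0.05), tested on simulated data. The residual is the genotype by challenge interaction. The response of 1 label against the others was an alternative added after seeing the data. The label set apart was picked for each gene, FcRg KO for Cd14 and Cd163 and WT for Lyve1 and F13a1. Its unadjusted p-values are therefore not those of a planned test. Python 3.11.15, numpy 2.4.6, pandas 2.3.3 and matplotlib 3.10.9 did the rest. Named genes are the members, the 2 highest and 2 lowest WT ratios of each list, and the 3 nearest genes of members that ranged over at least 1 log2 unit and were well above background throughout; others were named for their role after their values were seen. Spots of probes printed 10 times had a median SD of 0.062 to 0.069 log2, and having 6 arrays limits the precision. Protein sequences were not analysed here. Of the genes this rule names, 1 is not reported here.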

Additional observations from a re-analysis of the deposited data

Results flagged for a closer look

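Of 243 genes, the 7 measured members and the 236 list genes with a probe, 6 had HRF to PBS ratios at least 2-fold in opposite directions under a pair of labels, and 0 of these were members. All 6 were lower with HRF on the arrays labelled FcRg KO and higher on those labelled FceRIa KO. The 6 were the adipocyte markers Ucp1, Cidea, Plin1, Adipoq and Retn, and Fabp4, a lipid carrier from the alveolar macrophage list that fat cells also make. For Ucp1 the log2 ratio was -6.4388 for FcRg KO, 2.7661 for FceRIa KO and -0.1635 for WT. For Cidea it was -3.3044 for FcRg KO, 1.1054 for FceRIa KO and 0.8146 for WT. Plin1, which coats lipid droplets, had -1.5123, 1.1821 and 0.1099 under the same labels. Adipoq, the hormone adiponectin, had -1.2654, 1.3449 and -0.1446, and Retn, the hormone resistin, had -1.2224, 2.0873 and 0.0482. Fabp4 had -1.2745, 1.2064 and 0.0966. The differences were not tested, since each ratio rests on 1 array against 1 array.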

How the results depend on the processing

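The count of members at least 2-fold from PBS was 0 for FcRg KO, against 1, when probes had to be well above background on both arrays, because Cd163 then drops out of the genes compared, and it was 2 for WT, against 1, when arrays were scaled on the median. That scaling moved the median of all genes in WT by log2 0.22, to 0.17. It put the WT log2 ratios at 1.92 for Cd14, 1.03 for Lyve1, 0.83 for F13a1, 0.50 for Csf1r, 0.09 for Cx3cr1 and -0.23 for Folr2. Relative to the median of all genes, Lyve1 was at 0.86 and Cd14 at 1.75 under both scalings. This had to be so, since the scaling shifts every gene of an array alike. The average HRF effect of Cx3cr1 turned to 0.031 with scaling on the median. Leaving out 1 pair of arrays at a time gave average effects of -2.16 to 0.12 for Cd163, -0.26 to 0.28 for Lyve1 and -0.064 to 0.30 for F13a1, the sign turning without the FcRg KO pair for Cd163 and without the WT pair for the other 2, and 0.76 to 1.82 for Cd14. Quantile normalization after normexp put Cd163 on the arrays labelled FcRg KO at log2 -1.54 and Cd14 in WT at 1.49. For Cd14 the adjusted p of the average effect ran from 0.461 to 0.903 over the alternatives. Of 125 ratios of members recomputed under the other settings, 117 moved by less than the scanner error. Many of these could not move. The filter settings change which genes are compared and not their levels, and the mean of all probes leaves the level of a gene with 1 probe as it was. Apart from scaling on the median, the other settings took a dim value as measured and not as a bound. The log2 ratio of Cd163 for FcRg KO thus reached -4.23, and the counts of all genes under these settings differ in this too. In WT the genes at least 2-fold higher and lower numbered 303 and 35 with normexp and quantile normalization, 488 and 538 in the deposited value table and 541 and 920 with no filter, against 404 and 265. Members passed 0 limma tests in every alternative run. Genes passing FceRIa KO against WT numbered 3 higher and 22 lower with median scaling and 2 higher with normexp, and those passing FcRg KO against WT 5 and 38 with normexp and 0 and 11 in the value table. The additive model compares HRF with PBS within each genotype label, and beyond it no paired analysis was possible by replicate number because each group has 1 array. Levels near background, as for Cd163, are the least precise.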
